A study of Homo sapiens with 16 samples.

Results

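The genes described here are NQO1 and 6 genes of NADPH supply and detoxification: PGD, TKT, TALDO1, ME1, IDH1 and EPHX1. They are 7 of 20037 protein-coding genes on chromosomes 1 to 22, X and Y in the RefSeq table of GRCh38.p14. They were chosen by name, and a peak was assigned to a gene when it overlapped the gene body or the 10 kb on either side of it by at least 1 bp. These windows held 67 of the 163320 peaks in 14 deposited lists. The lists come from CUT&RUN, in which an antibody tethers a nuclease to its target in nuclei so that the DNA around the target is cut out and sequenced. All samples were WM164, a human melanoma cell line, overexpressing either GFP (the control protein, called GFP cells here) or the transcription factor MAFG (MAFG cells). Each line was profiled with an antibody against MAFG (3 libraries), one against MITF (3 libraries) and one against H3K4me3, a histone mark of active gene starts (1 library). The anti-rabbit IgG sample of each line was not analysed here. The labels do not say whether libraries of a group came from separate cultures, so the p-values below measure only the spread between these libraries, which may be technical.

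MAFG is a small MAF protein. Small MAF proteins lack an activation domain of their own and bind DNA as partners of factors such as NRF2 (gene NFE2L2) or BACH1, at antioxidant response elements. NQO1, a quinone reductase that uses NADPH or NADH, is a classic gene of this pathway. The other genes are also known NRF2-responsive genes in several tissues: PGD, TKT and TALDO1 encode enzymes of the pentose phosphate pathway, ME1 and IDH1 encode cytosolic enzymes that make NADPH, and EPHX1 encodes microsomal epoxide hydrolase. MITF is the lineage transcription factor of melanocytes and binds E-box and M-box sequences.

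The 4 sequences below show the NQO1 promoter under the peaks found in both lines, and the promoters of PGD, ME1 and IDH1 that hold a match to the antioxidant response element core TGACNNNGC within the printed bases. They are a selection: EPHX1 also has a match, at an inner start, and an inner IDH1 promoter also lies under peaks. Each is the 250 bases just upstream of the RefSeq gene start, 5′ to 3′ on the gene's strand, from RefSeq on GRCh38.p14. For NQO1 (chr16:69726561-69726810, minus strand) the capitals mark the 117 bases, 69726694 to 69726810, that were covered by a peak in all 6 anti-MAFG libraries of both lines.
NQO1: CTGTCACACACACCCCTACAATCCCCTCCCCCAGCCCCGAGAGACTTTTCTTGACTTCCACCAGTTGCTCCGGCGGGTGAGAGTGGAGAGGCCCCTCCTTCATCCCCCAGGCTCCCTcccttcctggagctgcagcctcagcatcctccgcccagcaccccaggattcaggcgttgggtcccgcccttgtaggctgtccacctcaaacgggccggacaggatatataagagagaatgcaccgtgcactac
For PGD (chr1:10398814-10399063, plus strand), ME1 (chr6:83431052-83431301, minus strand) and IDH1 (chr2:208255072-208255321, minus strand) the capitals mark the match to TGACNNNGC. In PGD the match lies on the other strand, so it reads as its reverse complement.
PGD: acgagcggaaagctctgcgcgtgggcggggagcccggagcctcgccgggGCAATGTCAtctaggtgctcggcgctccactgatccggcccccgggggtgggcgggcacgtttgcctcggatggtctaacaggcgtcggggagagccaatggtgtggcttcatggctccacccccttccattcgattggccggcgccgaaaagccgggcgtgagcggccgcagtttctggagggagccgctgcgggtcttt
ME1: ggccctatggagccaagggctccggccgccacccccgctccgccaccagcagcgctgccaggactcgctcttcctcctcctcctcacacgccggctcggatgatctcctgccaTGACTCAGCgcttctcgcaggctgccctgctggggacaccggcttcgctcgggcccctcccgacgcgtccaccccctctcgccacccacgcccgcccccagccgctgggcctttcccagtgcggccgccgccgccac
IDH1: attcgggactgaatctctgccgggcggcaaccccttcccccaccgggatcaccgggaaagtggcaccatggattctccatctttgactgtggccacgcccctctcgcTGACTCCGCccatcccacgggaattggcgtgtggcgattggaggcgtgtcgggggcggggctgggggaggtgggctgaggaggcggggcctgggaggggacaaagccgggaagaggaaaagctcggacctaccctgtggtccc

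Facts of the whole data set touch every count below. Lists from GFP cells were the longer ones, at 14879 to 26221 anti-MAFG peaks where MAFG cells had 1836 to 2818, and 19828 to 20117 anti-MITF peaks where MAFG cells had 2116 to 2495. The H3K4me3 lists were closer in length, at 13579 (GFP) and 11580 (MAFG) peaks. The depth recovered from the peak scores was 1.196 to 2.42 fragments per kb of genome in the anti-MAFG and anti-MITF libraries of GFP cells. It was 1.23 to 1.73 in those of MAFG cells, within the range of the GFP cells. These depths leave out a scale factor on the fragments, recovered from the same scores. The factor was 0.969 to 1.0 in these GFP-cell libraries and 0.452 to 0.637 in these MAFG-cell libraries. Similar depths thus do not show that peaks were called with equal power. The part of the scaling in the list lengths was not tested. In H3K4me3, 5 of 7 melanocyte lineage genes had a peak within 1000 bp of a start in both lines (DCT and TYRP1 had none), against 0 of 3 keratinocyte, 0 of 3 blood and 0 of 2 endothelial markers.

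All 7 genes had H3K4me3 in both lines. Of all protein-coding genes, 65.1% had one in the GFP line and 60.8% in the MAFG line. In GFP cells 4 of 7 genes (NQO1, PGD, ME1 and IDH1) had an anti-MAFG peak in at least 2 of 3 libraries, and 39.7% of all genes did. In MAFG cells NQO1 was the 1 gene of 7 called in this way, against 5.31% of all genes. For anti-MITF, 5 of 7 genes (the same 4 and TKT) were called in GFP cells, against 49.1% of all genes, and in MAFG cells 1 of 7 (TKT), against 8.46%. Among the 12161 genes with H3K4me3 in both lines, which is the state of all 7, the background was higher (52.7%, 6.93%, 70.2% and 12.6% in the same order). Set against it the counts show nothing particular to these genes, and they were not tested as a list. Their median length was 21448 bp, against 24115 bp for all genes.

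**Figure D1:**
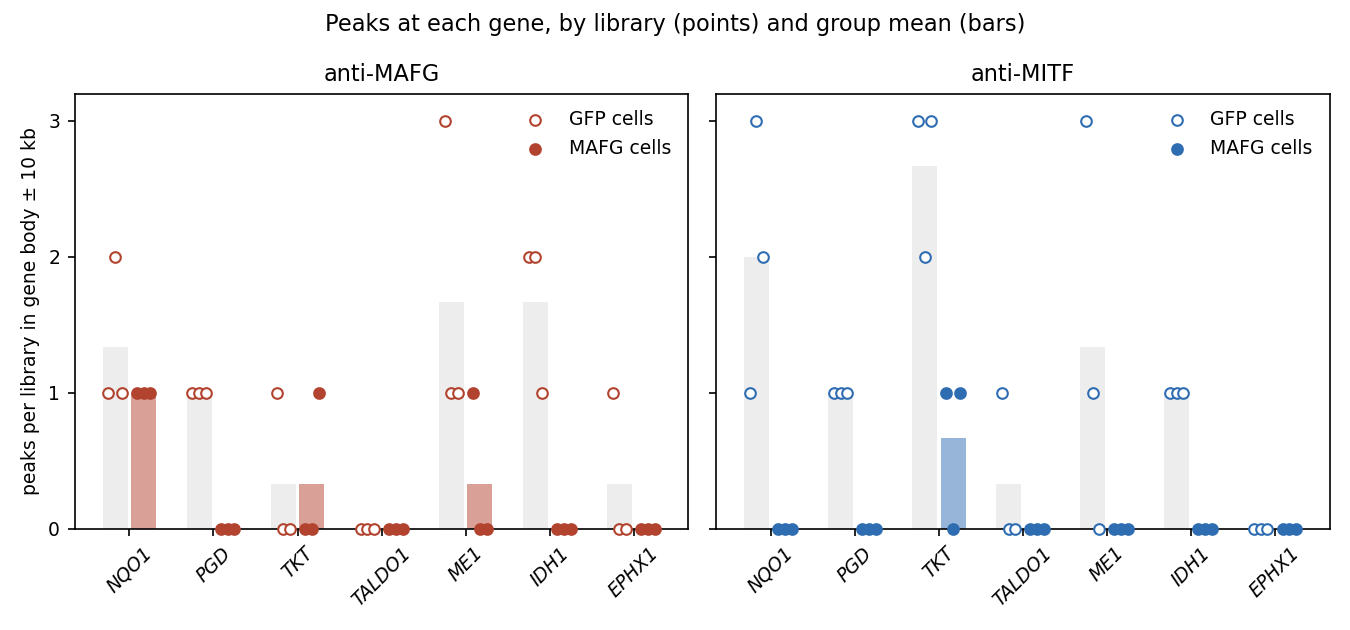
Number of peaks per library (points, 3 per group) in the gene body with 10 kb on either side, with group means as bars, for anti-MAFG on the left and anti-MITF on the right. NQO1 has 1 anti-MAFG peak in each MAFG-cell library, and TKT has 1 anti-MITF peak in 2 of the 3 MAFG-cell libraries, where most other points of the MAFG cells lie at 0.

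NQO1 had an anti-MAFG peak upstream of its start in all 6 libraries. Its anti-MAFG peaks numbered 1, 2 and 1 in GFP cells, against 1, 1 and 1 in MAFG cells, so the groups overlapped (difference of means -0.33, two-sided exact permutation test, p = 1). In MAFG cells the 3 peaks were 618 to 703 bp wide and lay wholly upstream of the gene. All 3 covered the start of NQO1-DT, a neighbouring gene of the RefSeq table. Their positions were chr16:69726690-69727366, chr16:69726686-69727388 and chr16:69726646-69727263. In GFP cells the 3 upstream peaks were 901 to 2508 bp wide. Of these, 2 ran over the NQO1 start, and all 3 covered that of NQO1-DT. Summits were 265, 265 and 280 bp upstream in GFP cells and 292, 245 and 251 bp upstream in MAFG cells.

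The anti-MITF peaks of GFP cells fell in the same place. They numbered 1, 3 and 2, with the upstream summit 237, 265 and 265 bp from the start, and there were 0, 0 and 0 in MAFG cells. Every GFP-cell library was thus above every MAFG-cell library (difference -2.0, exact permutation p = 0.1, the smallest that 20 assignments allow; adjusted by Benjamini-Hochberg over all genes 0.316). All 9 upstream summits of both antibodies lay within 55 bp, and 4 of them, 2 anti-MAFG and 2 anti-MITF libraries of GFP cells, fell on the same base, 69726825. The upstream anti-MITF peaks had fold values of 5.56, 5.46 and 6.56. By fold they ranked 13194 of 19828, 12348 of 20117 and 8669 of 20102, so they were not among the strong peaks of their lists. H3K4me3 covered the whole stretch in both lines, chr16:69723366-69728756 in GFP cells and chr16:69723827-69728669 in MAFG cells, with summits 416 and 430 bp into the gene.

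**Figure D2:**
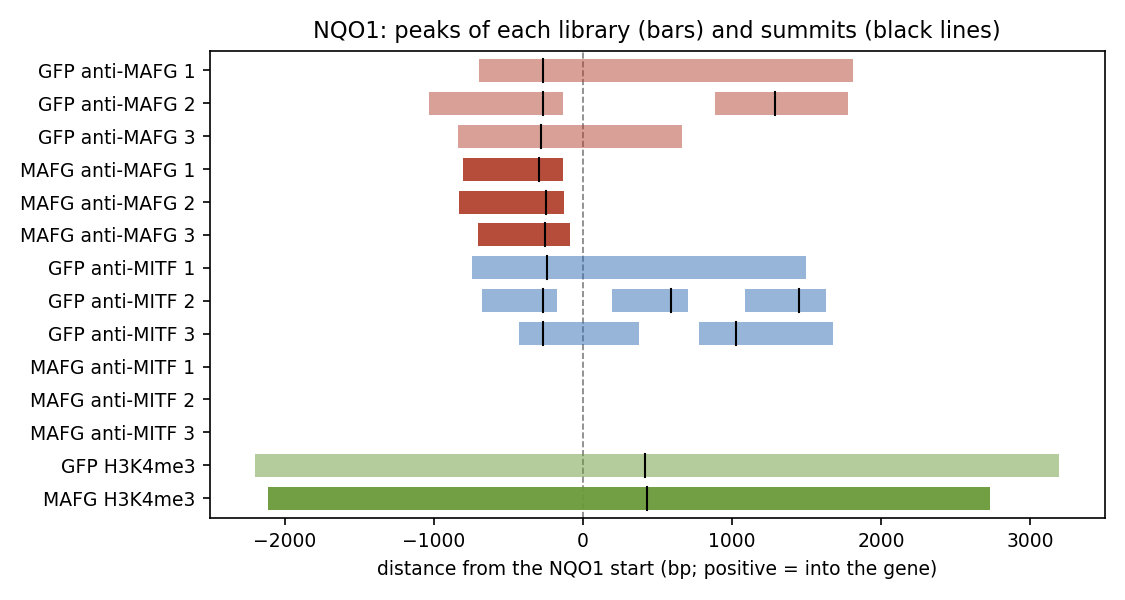
Peaks (bars) and summits (black lines) of each of the 14 libraries at the NQO1 start, in bp from the start with positive values into the gene. The anti-MAFG peaks of MAFG cells are narrow and upstream, the anti-MITF rows of MAFG cells are empty, and H3K4me3 spans the start in both lines.

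The strength of the NQO1 peak was read as fold, as rank and as recovered coverage. Fold enrichment is the authors' ratio of signal to control at the summit, here and throughout. At the upstream summit it was 10.7, 7.51 and 5.58 in GFP cells, against 6.66, 6.53 and 13.2 in MAFG cells, so the groups overlapped. By fold, these peaks ranked 3238 of 26221, 6578 of 23409 and 8461 of 14879 in the GFP-cell lists. In the MAFG-cell lists they ranked 1049 of 1836, 1024 of 1849 and 197 of 2818. Ranks in lists of such different lengths show no change between the lines.

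The third reading was the number of fragments over the summit, recovered from the deposited fold and p-value under the formula of the peak caller. It was 32, 17 and 14 fragments in GFP cells, against 53, 33 and 75 in MAFG cells. In multiples of each library's genome-wide mean coverage this was 42.1, 32.6 and 31.8 in GFP cells (35.5 ± 5.75, SD, n = 3) and 103, 79.2 and 193 in MAFG cells (125 ± 59.96, SD, n = 3). All 3 MAFG-cell libraries were above all 3 GFP-cell libraries, with a log2 difference of 1.72 (exact permutation test, p = 0.1, the smallest possible). The authors' fold at the same summits gave a log2 difference of 0.12 (exact permutation test, p = 0.7). The control level recovered for that ratio is on each library's own scale. It was 2.0, 1.40 and 1.69 in GFP cells, against 3.0, 2.37 and 2.0 in MAFG cells. These values cannot be compared directly between the lines, because the genome-wide mean on the same scale differed. That mean was 0.736, 0.522 and 0.440 for the GFP line. For the MAFG line it was 0.249, 0.265 and 0.201. Relative to that mean, the control was higher in every MAFG-cell library than in any GFP-cell library, which was not tested. The control used is not stated. If it was the IgG sample of each line, the control values within a line share that sample and are not separate measurements.

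Regions called in all 6 anti-MAFG libraries numbered 612, and their recovered coverage was higher in MAFG cells for 92.3% of them, with a median log2 difference of 0.90 (quartiles 0.46 and 1.37). At 89.9% of these regions the difference was at or below that of NQO1. A higher value in MAFG cells was thus common to most of these 612 regions, and NQO1 lay in the upper part of their range. Each region had to pass calling in the short MAFG-cell lists. At the 7 genes, the lowest coverage of a called anti-MAFG peak was 31.1 among MAFG-cell libraries (ME1, replicate 1). Among GFP-cell libraries it was 13.4 (NQO1, replicate 2). How far this choice of regions raised the median and the share above 0 was not tested. The control at these regions was not compared, so a higher value is not shown to be a gain of anti-MAFG signal over control. For anti-MITF the median over 1146 such regions was 0.09. NQO1 is not among them, since it had no anti-MITF peak in MAFG cells.

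**Figure D3:**
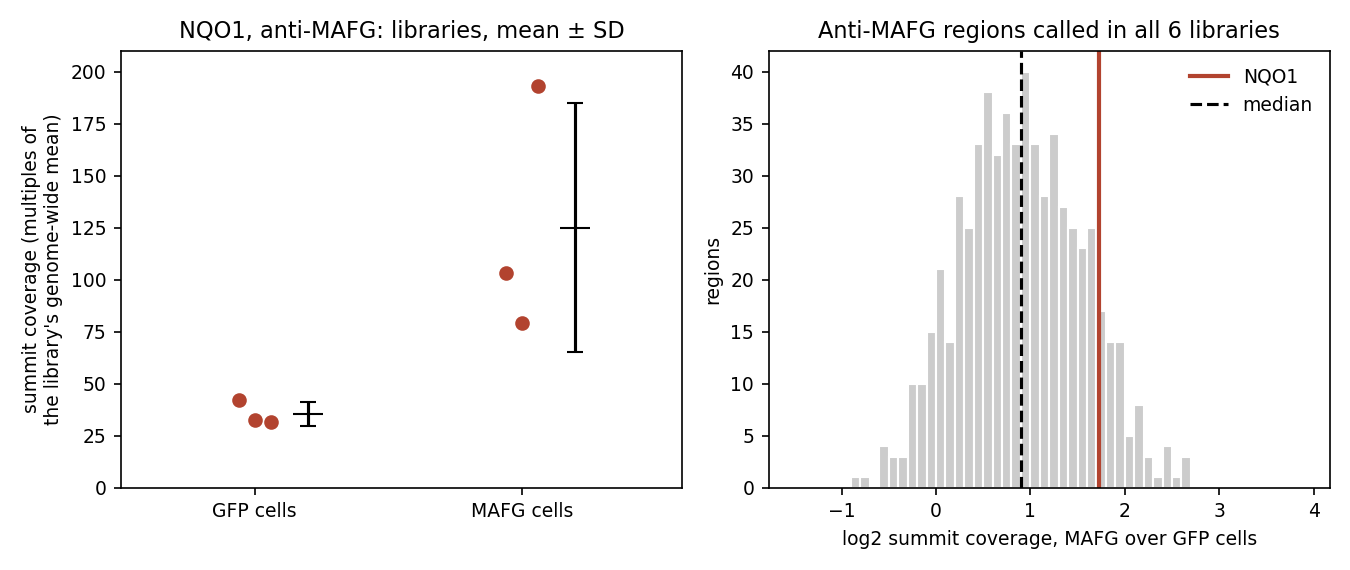
Left, recovered anti-MAFG summit coverage at NQO1 in multiples of the library's genome-wide mean, each library as a point with mean and SD beside it (n = 3 per line). Right, the log2 difference, MAFG over GFP cells, of the 612 regions called in all 6 anti-MAFG libraries, with the median at 0.90 and NQO1 at 1.72. Coverage is not corrected for the control.

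With the lists trimmed to their best 1836 peaks each by −log10 q, NQO1 had its anti-MAFG peak in all 3 MAFG-cell libraries and 0 in all 3 GFP-cell libraries. This trimming keeps the whole of the first MAFG-cell list (1836 peaks) and nearly all of the second (1849), but a small part of the GFP-cell lists, so it compares ranks in lists of different lengths and shows no change between the lines. Of all genes, 1.52% showed this order after trimming. With the full lists 0 of 7 genes did, and 0.125% of all genes. For anti-MITF the order with MAFG cells above was found in 0 of 7 genes and 0.00499% of all genes.

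The genes with a profile most like that of NQO1 over the 14 libraries were AGER, RNF5 and FLOT1. Likeness was the mean absolute difference in the rank of the best peak, as a percentage of the list. It was 9.74 points for AGER and RNF5, which are neighbours and share their peaks, and 10.4 for FLOT1, where the median over 20017 genes was 39.3. All 3 had anti-MAFG peaks in 3 of 3 libraries of both lines, and anti-MITF peaks in 3 of 3 libraries of GFP cells and 0 of 3 of MAFG cells. They were picked for likeness over these same libraries, so the shared pattern follows from the choice.

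The pentose phosphate pathway genes differed from each other. PGD, which encodes the NADPH-yielding 6-phosphogluconate dehydrogenase, had 1 anti-MAFG peak in each GFP-cell library and none in the MAFG-cell libraries. Their fold values were 10.9, 7.69 and 7.61, and their summits lay 125, 159 and 195 bp into the gene. The anti-MITF peaks of GFP cells had fold values of 8.09, 4.99 and 8.35 and summits at 159, 88 and 101 bp, and MAFG cells again had none. The groups did not overlap for either antibody (difference -1.0 each, exact permutation p = 0.1; Benjamini-Hochberg adjusted 0.429 for anti-MAFG and 0.316 for anti-MITF). The GFP-cell peaks covered the start except that of anti-MITF replicate 2, and H3K4me3 at PGD had its summit 159 bp into the gene in both lines. A second H3K4me3 peak of GFP cells (fold 25.2) touches the far edge of the PGD window and lies over the start region of CENPS, a kinetochore gene.

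MAFG cells did have anti-MAFG peaks near PGD, just beyond the 10 kb limit. In all 3 libraries a peak lay 11.1 to 11.2 kb upstream of the start, between 10387633 and 10388500 on chromosome 1, which ends 564 bp short of the window. Fold values were 11.4, 7.16 and 13.1. In GFP cells 1 of 3 anti-MAFG libraries (replicate 2, fold 5.30) had a peak there, and no anti-MITF or H3K4me3 library of either line did. PGD is the nearest protein-coding gene start. A similar site lay 42.7 kb upstream of EPHX1 (chr1:225766847-225767688), with fold values of 8.09, 6.93 and 8.59 in MAFG cells and no peak in the other 11 libraries. There the nearest start is that of SRP9, 10.4 kb away. Both sites were singled out after their values were seen.

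TKT encodes transketolase, of the non-oxidative branch. Its anti-MITF peaks numbered 3, 2 and 3 in GFP cells, against 1, 0 and 1 in MAFG cells, and the groups did not overlap (difference -2.0, exact permutation p = 0.1, Benjamini-Hochberg adjusted 0.316). The peaks at the start, with fold values of 6.42, 3.58 and 5.71, were found in GFP cells only among these libraries. An internal site, 17.4 to 17.5 kb downstream of the start near chr3:53238447-53238905, was found in both lines. Its fold values were 8.63, 5.90 and 8.31 in GFP cells, 8.17 in MAFG-cell replicate 1 (rank 633 of 2491) and 9.32 in replicate 3 (rank 339 of 2495), with no peak in replicate 2. The summits of the 2 lines at this site lay among each other, and no H3K4me3 peak covered it in either line. After trimming to equal list lengths, which bears the same limit as at NQO1, the difference was 0.67. Without MAFG-cell replicate 1 or 3 TKT was no longer called in MAFG cells.

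Anti-MAFG peaks at TKT were single. GFP-cell replicate 1 had one past the end of the gene, 33.2 kb from the start (fold 6.72), and MAFG-cell replicate 3 had one 19.5 kb from the start (fold 6.13, rank 1939 of 2818). TALDO1, which encodes transaldolase of the same branch, had the strongest H3K4me3 of the 7 genes and almost no factor peak. The H3K4me3 fold was 115 in GFP cells (rank 104 of 13579) and 56.0 in MAFG cells (rank 66 of 11580). Of the 12 anti-MAFG and anti-MITF libraries, 1 had a peak at TALDO1: anti-MITF replicate 1 of GFP cells, 827 bp into the gene, with 7 fragments at the summit and a fold of 5.48.

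ME1 and IDH1 supply cytosolic NADPH by oxidising malate and isocitrate. ME1 had 3, 1 and 1 anti-MAFG peaks in GFP cells, against 1, 0 and 0 in MAFG cells, with overlap between the groups (difference -1.33, exact permutation p = 0.3). In GFP cells they fell in 2 places. Replicates 1 and 3 had peaks 157 to 807 bp into the gene with fold values from 5.53 to 7.27. Replicates 1 and 2 had a peak 8587 bp upstream with fold values of 9.40 and 7.05 and the same summit base. The MAFG-cell peak, in replicate 1 (chr6:83431661-83432347, fold 6.96, rank 984 of 1836), lay 863 bp upstream and met neither place. After the same trimming the difference was 0.33. Anti-MITF peaks numbered 3, 1 and 0 in GFP cells and none in MAFG cells (difference -1.33, exact permutation p = 0.4).

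IDH1 had 2, 2 and 1 anti-MAFG peaks in GFP cells and none in MAFG cells (difference -1.67, exact permutation p = 0.1, Benjamini-Hochberg adjusted 0.429). Each GFP-cell library had a peak just inside the gene, with summits 337, 270 and 302 bp from the start and fold values of 7.96, 6.21 and 5.24. A stronger peak of replicate 1 (fold 19.9, rank 156 of 26221) touches the window from outside, its summit being 10711 bp upstream. That peak covers the start of PIKFYVE. The anti-MITF peaks of GFP cells, 1 per library, had summits at 148, 330 and 93 bp and fold values of 6.77, 4.65 and 6.0, and MAFG cells had none (difference -1.0, exact permutation p = 0.1, Benjamini-Hochberg adjusted 0.316). The anti-MAFG and anti-MITF peaks of IDH1 thus lay over the same stretch in GFP cells.

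**Figure D4:**
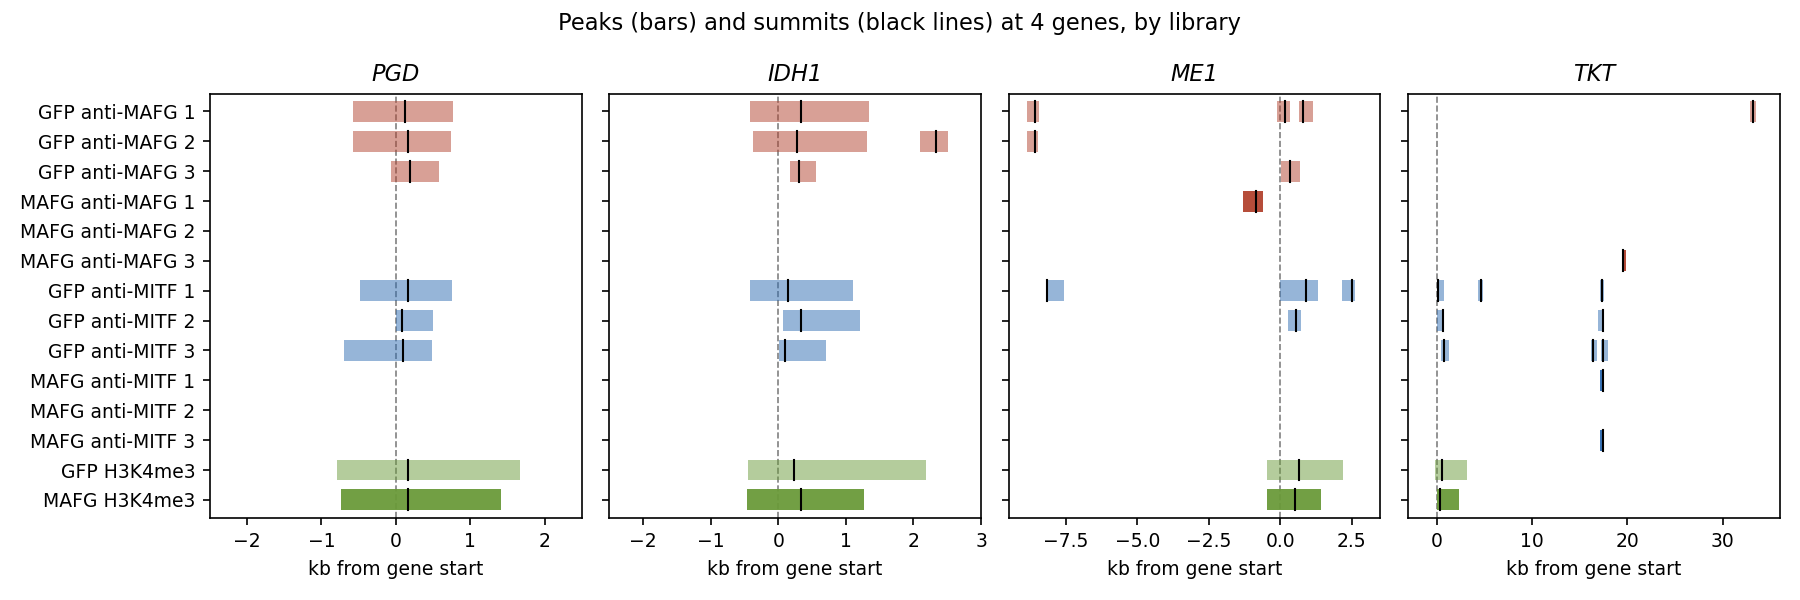
Peaks (bars) and summits (black lines) of each library at PGD, IDH1, ME1 and TKT, in kb from the gene start with positive values into the gene; the panels have different scales. GFP-cell peaks gather at the starts of PGD and IDH1, whose MAFG-cell rows hold H3K4me3 alone, and the anti-MITF site of TKT at 17.4 to 17.5 kb is present in both lines.

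EPHX1, the epoxide hydrolase gene, had a single factor peak within 10 kb, in anti-MAFG replicate 1 of GFP cells (chr1:225810102-225810592, fold 6.08). This peak lay under the H3K4me3 peak of the start.

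Over the 7 genes, all 3 GFP-cell libraries exceeded all 3 MAFG-cell libraries in anti-MAFG peak number for 2 genes (PGD and IDH1), against 23.2% of all genes. For anti-MITF this held for 4 genes (NQO1, PGD, TKT and IDH1), against 31.7%. Among genes with H3K4me3 in both lines these backgrounds were 31.1% for anti-MAFG and 46.1% for anti-MITF. The median difference in peak number was -0.33 for anti-MAFG, equal to the median over all genes, and -1.0 for anti-MITF, where the median over all genes was -0.33. No gene could pass an adjusted threshold of 0.05 in this design. With equal list lengths 0 of 7 genes were called in GFP cells for either antibody, so the counts above move with the number of peaks called. In GFP cells 16 of 19 anti-MAFG and 19 of 25 anti-MITF peaks at these genes overlapped an H3K4me3 peak of the same line. In MAFG cells 3 of 5 anti-MAFG peaks did, all at NQO1, and 0 of 2 anti-MITF peaks. The share of all peaks under H3K4me3 was not counted, and all 7 genes had the mark in both lines. These overlaps thus show nothing particular to these genes or to a line.

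H3K4me3 itself differed little, with 1 library per line and no test. In multiples of the library mean, summit coverage at the start went from 224 in GFP cells to 193 in MAFG cells at NQO1 and from 215 to 183 at PGD. It was 235 and 203 at TKT, 337 and 282 at TALDO1, and 111 and 99.4 at ME1. At IDH1 it was 111 and 135, and at EPHX1 59.96 and 67.7. The log2 differences ran from -0.25 at TALDO1 to 0.29 at IDH1. Over 10825 regions called in both lines the median was -0.10 with quartiles of -0.29 and 0.09, so 5 genes lay within these quartiles, and IDH1 and EPHX1 above the upper one. The authors' fold differed more, with 81.7 and 18.8 at NQO1 and 65.1 and 9.09 at PGD, while it was 11.1 and 13.3 at EPHX1. It is measured against the control of each line, and the part of that control in the fold was not tested.

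**Figure D5:**
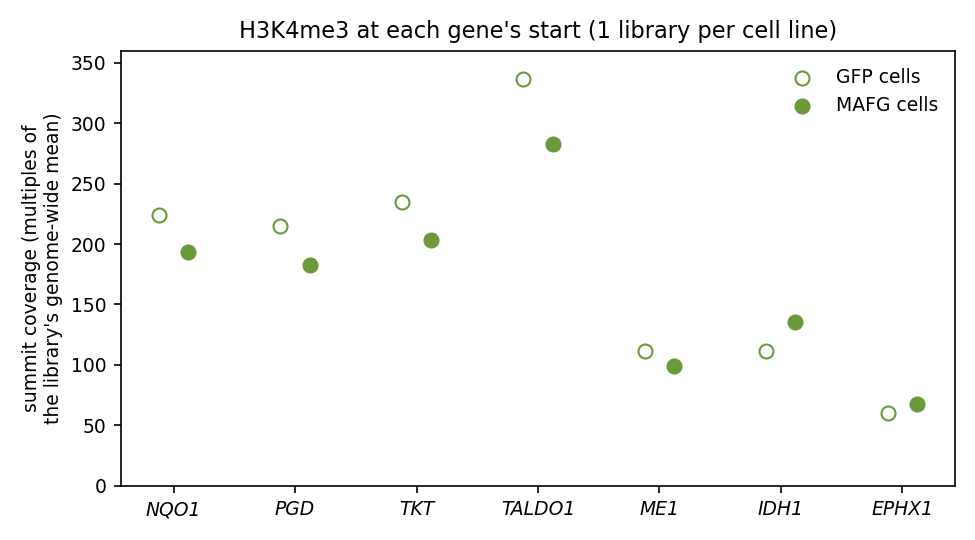
H3K4me3 summit coverage at the start of each gene, in multiples of the library's genome-wide mean, for the 1 library of GFP cells (open) and the 1 library of MAFG cells (filled). The values lie close together within each gene, with TALDO1 highest and EPHX1 lowest in both lines.

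Matches to short motifs were counted on both strands in the 250 bases before and 50 bases after each start, in 22199 RefSeq promoters of 15843 genes, of which 10 belong to the 7 genes. The core TGACNNNGC was present in 13.8% of all promoters and in 4 of these 10: those of PGD and ME1, 1 of IDH1 and 1 at a start inside EPHX1. In PGD the match begins 201 bp upstream, and 2 of 3 anti-MAFG and 2 of 3 anti-MITF peaks of GFP cells covered it. In IDH1 it begins 143 bp upstream (TGACTCCGC) and was covered in 2 anti-MAFG libraries and 1 anti-MITF library of GFP cells. In ME1 the upstream match (TGACTCAGC, 137 bp before the start) overlaps the AP-1 site TGAGTCA, read on the other strand, and no factor peak covered it. A further match just inside ME1 was covered in 1 GFP-cell library of each antibody. The NQO1 stretch printed above holds no TGACNNNGC. It holds the MAF core TGCTGA on the other strand 113 bp before the start, covered in 2 GFP-cell and 1 MAFG-cell anti-MAFG libraries and in 2 GFP-cell anti-MITF libraries. The upstream peaks of both lines reach further than the printed bases, and that sequence was not analysed here. Of their summits, 245 bp (anti-MAFG, MAFG-cell replicate 2) and 237 bp (anti-MITF, GFP-cell replicate 1) fall within the printed bases. The other upstream summits lie beyond them, so most peak centres were not searched. TGCTGA was in 15.4% of all promoters and in 4 of the 10, at NQO1, TALDO1, ME1 and EPHX1. At TALDO1 and EPHX1 no anti-MAFG or anti-MITF peak covered it, and at ME1 it was covered in 1 GFP-cell library of each antibody. Of all promoters, TGAGTCA was in 4.01%, and the MITF motifs CACGTG and TCATGTG were in 8.34% and 2.32%. CACGTG was found in none of the 10 promoters, and TCATGTG in 1, at an inner start of EPHX1.

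Among 25 other genes of NADPH supply and use, anti-MAFG calls were made at 11 in the GFP line and 3 in the MAFG line, and anti-MITF calls at 18 and 2. H3K4me3 was present at 20 (GFP) and 19 (MAFG). Of all genes, 39.7% (GFP) and 5.31% (MAFG) were called for anti-MAFG and 49.1% and 8.46% for anti-MITF. For H3K4me3 the shares were 65.1% and 60.8%. The counts were not tested against these shares. The 3 genes called for anti-MAFG in MAFG cells had a peak in 3 of 3 libraries. TXNRD1, which encodes cytosolic thioredoxin reductase, had it 4126 to 4145 bp from its start with fold values of 12.9, 13.1 and 9.41. RPIA, the ribose-5-phosphate isomerase gene, had it 43.4 to 43.5 kb from its start with fold values of 8.72, 8.39 and 11.3. NQO2, the paralogue of NQO1, had peaks of 4.53, 5.03 and 5.66 that did not share 1 position, with summits 400, 123 and 1848 bp into the gene. Groups did not overlap, with GFP cells above, for 7 of the 25 genes with anti-MAFG, against 23.2% of all genes. With anti-MITF this held for 11 of the 25, against 31.7% of all genes. Among genes with H3K4me3 in both lines the shares were 31.1% and 46.1%, and the counts were not tested against them.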

How the data were processed

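Peaks were called per library. Per the submitters' processing notes the tools included cutadapt 1.8.1, Bowtie2 2.4.1, MACS2 2.1.1.20160309, ChIPseeker 1.32.1 and deepTools, and the build was GRCh38 (hg38). The control and the settings are not given in the sources used here. The values of each peak are as deposited by the authors: a fold enrichment (a ratio) and −log10 p-values and q-values. Positions and summits are the authors' too.

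The genes, the gene lists and the motifs were chosen with earlier results of these data known. The text names all 7 genes, the listed pathway genes called in at least 2 of 3 anti-MAFG libraries of MAFG cells, and the 3 genes most like NQO1. Peaks on chromosomes 1 to 22, X and Y were assigned with Python 3.11.15, pandas 2.3.3 and scipy 1.17.1. A gene was called in a group with a peak in at least 2 of 3 libraries. Differences in peak number were tested by exact permutation, two-sided (20 assignments, smallest p 0.1), adjusted by Benjamini-Hochberg over all 20037 genes. Ranks are by fold within 1 list. Marker genes without a strand in the gene table were judged at either end of the gene.

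Fragment counts at summits were recovered by finding the whole numbers that give the deposited fold and −log10 p under a Poisson model within 0.001. The files do not state this formula, and the comparison at NQO1 was added after seeing the data. The scripts were tested on simulated data. No genome sequence was used, so exons and introns are not named, and sequences end at the RefSeq promoter windows. Alternatives were the window, the threshold, equal list lengths, the summit rule, 3 of 3 libraries, each library left out, covered base pairs and a replicate block.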

Additional observations from a re-analysis of the deposited data

How the results depend on the processing

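For the counts of genes called per group and the NQO1 coverage difference, 49 alternatives stayed the same and 11 moved. A count stayed the same within 1.5 times, and the coverage difference if it kept its direction. For the single-gene differences in peak number, taken with the NQO1 rank, 129 alternatives stayed the same, 12 moved to no difference and 3 reversed. The unchanged alternatives of both sets include the replicate block, which cannot change a difference. Among the 49, the NQO1 log2 difference of 1.72 (p = 0.1) was 0.12 (p = 0.7) with the authors' fold (exact permutation tests). The share of all genes called was counted in the main setting only, so the gene counts under other settings have no background to be read against. In GFP cells 50 kb on either side gave 6 genes for anti-MAFG and 7 for anti-MITF. With 1836 peaks per library, 0 of 7 genes were called in GFP cells for anti-MAFG and 0 for anti-MITF, and H3K4me3 was called at 2 (NQO1 and TALDO1) in GFP cells and 1 (TALDO1) in MAFG cells. The same setting reversed 3 differences in peak number, to 1.00 for anti-MAFG at NQO1, 0.33 for anti-MAFG at ME1 and 0.67 for anti-MITF at TKT. Fewer peaks in the long lists is the construction of that setting. With the gene body alone, anti-MAFG in MAFG cells called 0 genes, because the NQO1 peaks lie upstream. With 50 kb on either side it called 3 (NQO1, PGD and EPHX1), and anti-MITF in MAFG cells called 2 (NQO1, from a site 0.2 kb from the WWP2 start, and TKT). Anti-MITF in MAFG cells called 0 genes within 1000 bp of a start and 0 when 3 of 3 libraries were required, and leaving out each library in turn gave 0 to 1 (0 without replicate 1 or 3).

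The log2 difference at NQO1 in recovered coverage ran from 1.36 to 2.0 when each library was left out in turn. The labels do not say that replicate numbers pair the samples. Correlations between same-numbered libraries of the lines ran from -0.13 to 0.01, and 1 of 6 GFP-cell libraries correlated best with its own number. Such correlations of peak numbers cannot show whether the libraries were prepared in pairs. The replicate block can change only the p-value, because the mean of paired differences equals the difference of means. For the NQO1 difference of 1.72 it gave p = 0.25 (exact sign-flip test, the smallest possible).

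With 3 libraries per group the smallest p is 0.1, and H3K4me3 has 1 library per line. Recovered coverage exists only at called peaks, and signal under the authors' threshold was not measured.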
